A study of Rattus norvegicus with 6 samples.

Results

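The genes described are the Notch receptors Notch1, Notch2 and Notch3, the ligands Jag1, Jag2, Dll1 and Dll3, and the modifiers Lfng, Mfng and Nrarp, in cultured oligodendrocyte progenitor cells (OPCs), the glial precursors that later make myelin. They were chosen by name, as members of the pathway with a measured probe set under their gene symbol. All 10 were measured, each by 1 probe set, among 13949 genes with a symbol of their own. The OPCs were primary cells of newborn rats that had recovered in proliferation medium with N2, B27, NT3 and PDGF. The control group was 3 unstimulated samples, and the other group was 3 samples stimulated with fibrinogen, a clotting protein of blood plasma, for 12 h. Both groups shared the same medium, and the fibrinogen dose, the rat strain and any genetic change were not given in the sources used here. Every value is a log2 level on an Affymetrix array, so that 1 unit is a doubling, and levels of different genes are not comparable as amounts.

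Notch receptors sit in the cell membrane and are switched on by Delta-like (Dll) and Jagged (Jag) proteins on neighbouring cells. Binding leads to cleavage of the receptor, and its intracellular part moves to the nucleus, where it joins the DNA-binding protein Rbpj and turns on repressor genes of the Hes and Hey families. In the oligodendrocyte lineage Notch signaling is known for holding progenitors back from differentiation. Fringe enzymes such as Lfng and Mfng add a sugar to the receptor and so change how well it responds to each kind of ligand.

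Of the 13949 genes tested, 432 (3.1%) passed the test for a difference between the groups, 252 (1.81%) higher with fibrinogen and 180 (1.29%) lower (limma, Benjamini-Hochberg adjusted p under 0.05). With 1 array left out, 184, 156 and 151 genes passed without control replicate 1, 2 and 3, and 231, 436 and 280 without fibrinogen replicate 1, 2 and 3. The spread of all genes about their group mean was 0.146 on the array of fibrinogen replicate 2, and between 0.0862 and 0.114 on the other arrays. The background was gauged from the mean levels of 956 receptor genes for odours and pheromones, whose 95th percentile was 5.51, and all 10 Notch genes had a mean level above it. Of 8 listed OPC markers 7 were measured, and all 7 lay above that percentile, among them Pdgfra at 11.50 ± 0.05 in controls (SD, n = 3). The number of arrays limits the precision of every value, and in such bulk samples fewer cells of a type and less RNA per cell cannot be told apart.

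Of the 10 Notch genes 1 rose with fibrinogen, the fringe gene Lfng, and 0 fell (limma, adjusted p under 0.05). Over all genes 1.81% rose and 1.29% fell by the same test. Before adjustment, p was under 0.05 for 3 of the 10, with 2 higher (Notch2 and Lfng) and 1 lower (Dll1), against 15.6% of all genes (8.12% higher and 7.46% lower). The median log2 change of the 10 was 0.08, with a range from -0.28 for Dll3 to 0.48 for Lfng, beside a median of -0.0033 over all genes. The median of the 10 was 0.017 without fibrinogen replicate 3 and 0.13 without fibrinogen replicate 1. The median size of the change, whatever its sign, was 0.23 for the Notch genes and 0.087 for all genes. All 10 Notch genes lay above the background percentile, against 9949 of the 13949 genes, and no median was taken over those 9949 alone. The groups did not overlap for 5 of the 10 (Notch1, Notch2, Dll1, Lfng and Nrarp), and for 21.3% of all genes.

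**Figure D1:**
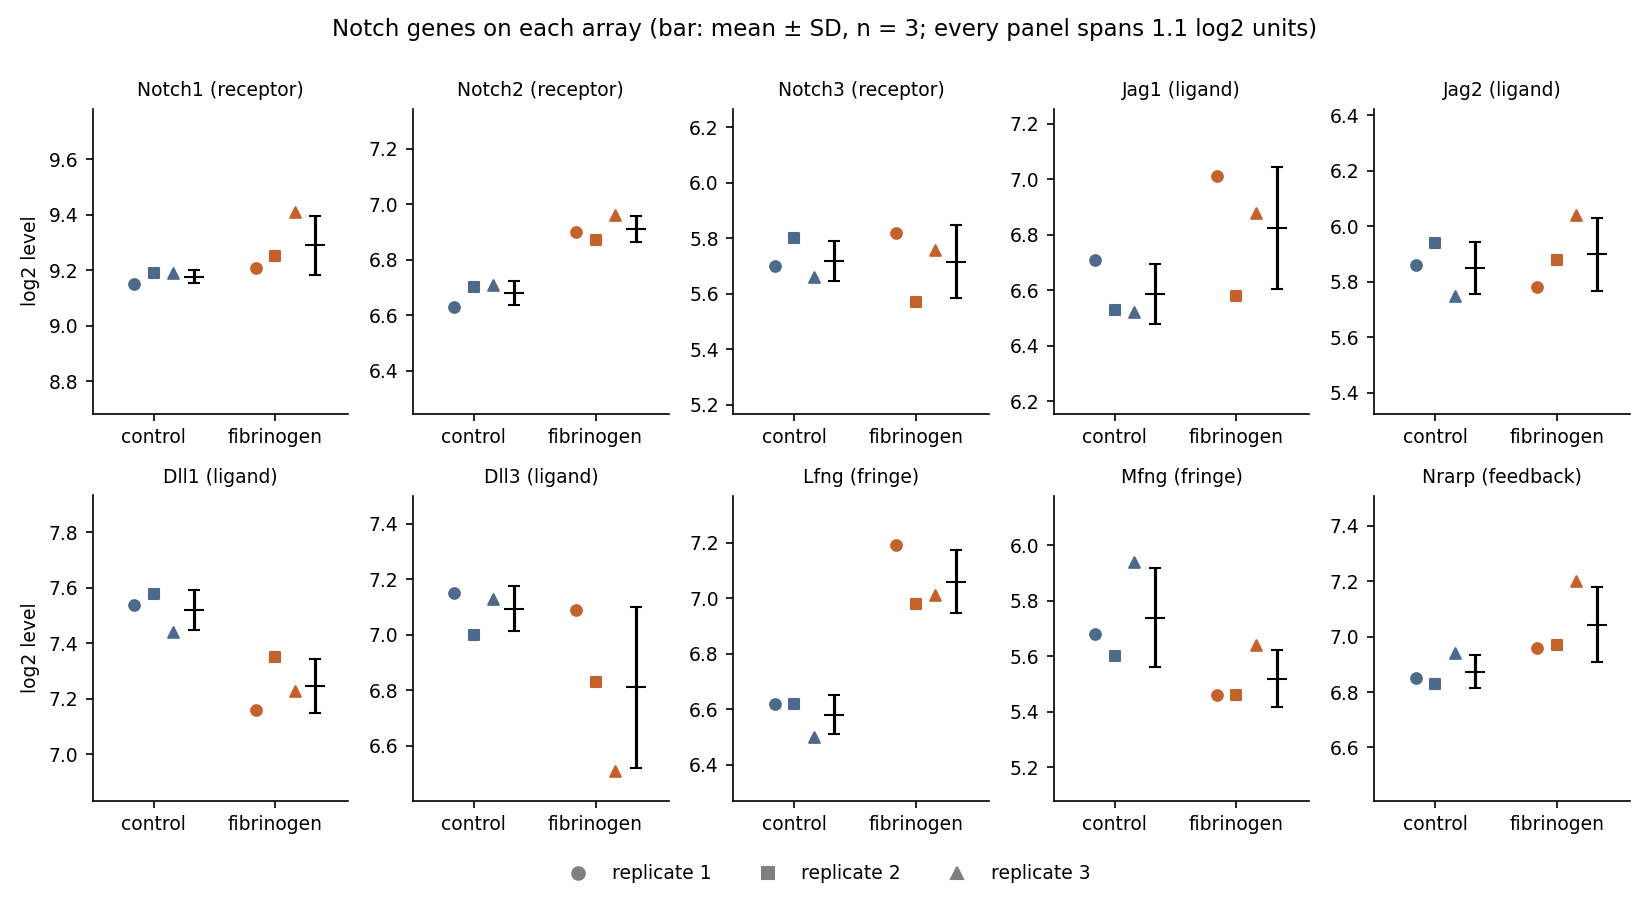
Log2 level of each of the 10 Notch genes on every array, with control in blue and fibrinogen in orange, the marker shape giving the replicate number and the bar the mean ± SD (n = 3). Lfng is between 6.50 and 6.62 in controls and between 6.98 and 7.19 with fibrinogen, while the groups of Notch3, Jag1, Jag2, Dll3 and Mfng overlap.

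None of the 3 receptors passed the test, although 1 of them, Notch2, passed at an unadjusted p under 0.05. Notch1, the receptor through which axonal Jag1 is known to restrain oligodendrocyte maturation, was at 9.15, 9.19 and 9.19 in controls and at 9.21, 9.25 and 9.41 with fibrinogen. The groups lay next to each other without overlap, and fibrinogen replicate 3 was the highest. The log2 change of Notch1 was 0.11 ± 0.08 (SE), with a 95% interval from -0.06 to 0.29 and an adjusted p of 0.544 in limma. Without fibrinogen replicate 3 it was 0.053.

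Notch2, a second receptor that is activated in the same way, was at 6.63, 6.70 and 6.71 in controls and at 6.90, 6.87 and 6.96 with fibrinogen. Every fibrinogen array was above every control, and the spread within a group was small (SD 0.04 and 0.05, n = 3 each). This log2 change of 0.23 ± 0.07 (SE), a 1.17-fold difference, did not pass over all genes (unadjusted p = 0.00842, adjusted p = 0.129, limma). With each array left out in turn it lay between 0.21 and 0.25. Notch3, best known from the smooth muscle and pericytes of vessels, was at 5.70, 5.80 and 5.66 in controls and at 5.82, 5.57 and 5.76 with fibrinogen, close to the background percentile. Its groups overlapped throughout, and its log2 change was -0.0033, with a 95% interval from -0.20 to 0.19.

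The ligand genes gave values on both sides of zero, and none of the 4 passed. Dll1, a Delta-like ligand that activates Notch on a neighbouring cell, was at 7.54, 7.58 and 7.44 in controls and at 7.16, 7.35 and 7.23 with fibrinogen. Its groups did not overlap, with all fibrinogen arrays lower. The log2 change was -0.27 ± 0.08 (SE), with an unadjusted p of 0.00743 and an adjusted p of 0.123 in limma, and a 95% interval from -0.45 to -0.09. With limma's array weights, which give noisier arrays less influence, the change was -0.31 and the adjusted p 0.0446, so Dll1 passed under that setting.

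Dll3, a ligand found mainly inside the cell that does not activate receptors on neighbouring cells, was at 7.15, 7.00 and 7.13 in controls and at 7.09, 6.83 and 6.51 with fibrinogen. Fibrinogen replicate 3 was the lowest, and fibrinogen replicate 1 lay among the controls. The log2 change of -0.28 ± 0.13 (SE) had an adjusted p of 0.359 (limma) and was -0.13 without fibrinogen replicate 3.

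Jag1, the Jagged ligand carried by axons and by reactive astrocytes, was at 6.71, 6.53 and 6.52 in controls and at 7.01, 6.58 and 6.88 with fibrinogen. Fibrinogen replicates 1 and 3 were above every control, while fibrinogen replicate 2 lay within their range. The log2 change was 0.24 ± 0.11 (SE), with an adjusted p of 0.378 in limma, and it was 0.36 without fibrinogen replicate 2 and 0.14 without fibrinogen replicate 1. Jag2, its paralog, was at 5.86, 5.94 and 5.75 in controls and at 5.78, 5.88 and 6.04 with fibrinogen. These groups overlapped, and the log2 change was 0.05, with a 95% interval from -0.15 to 0.25.

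Lfng encodes lunatic fringe, a Golgi enzyme that extends the O-linked fucose on Notch and favours the response to Delta-like over Jagged ligands. It was at 6.62, 6.62 and 6.50 in controls and at 7.19, 6.98 and 7.01 with fibrinogen, so that every fibrinogen array was above every control. The log2 level went from 6.58 ± 0.07 to 7.06 ± 0.11 (SD, n = 3 each), a 1.39-fold rise. On the log2 scale this is 0.48 ± 0.08 (SE), with a 95% interval from 0.29 to 0.67 and an adjusted p of 0.0183 in limma. By the size of its change Lfng ranked 311 among the 13949 genes.

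The size of the Lfng change stayed between 0.42 and 0.52 with each array left out, but the call did not hold in every such fit. Without control replicate 1, 2 or 3 the change was 0.50, 0.50 and 0.44, and the adjusted p 0.0634, 0.0693 and 0.0963 in limma. Without fibrinogen replicate 1, the highest array, the change was 0.415 with an adjusted p of 0.0546. Without fibrinogen replicate 2 or 3 Lfng passed (adjusted p = 0.0247 and 0.0443). With all arrays kept it passed under each of the 9 other settings tried, with an adjusted p between 0.00866 and 0.0316.

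**Figure D2:**
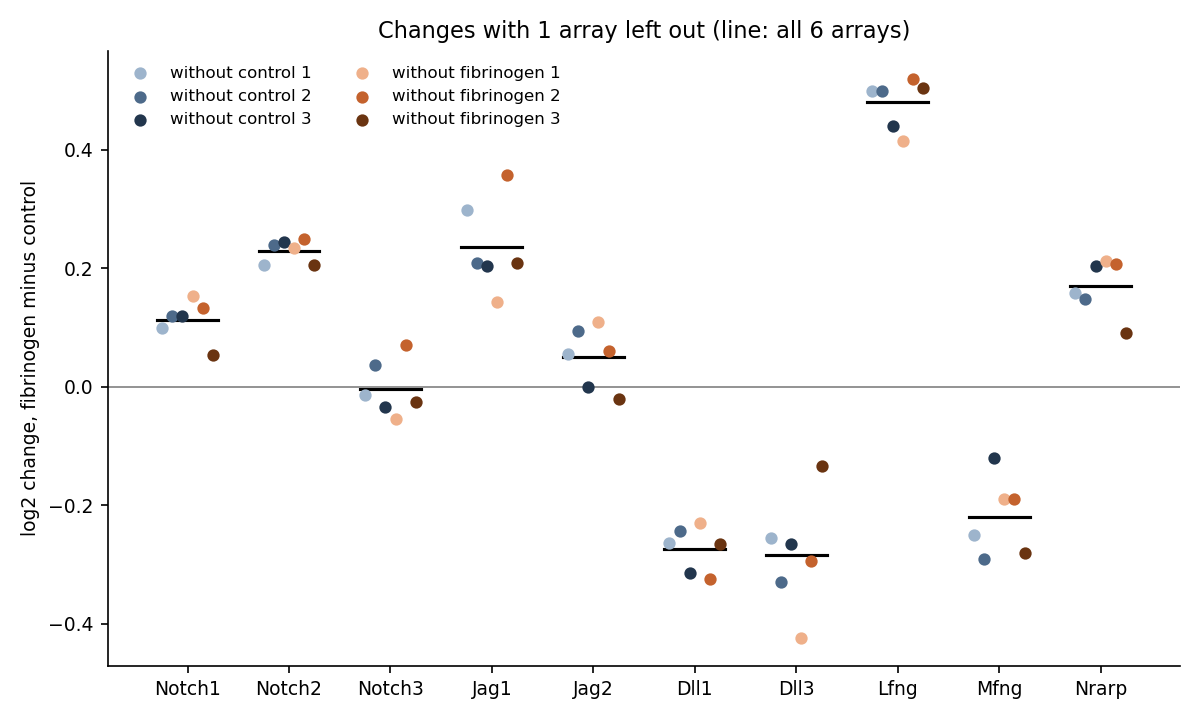
Log2 change (fibrinogen minus control) of each Notch gene with 1 array left out, coloured by that array, beside the change over all 6 arrays (black line). Lfng stays between 0.42 and 0.52 and Notch2 between 0.21 and 0.25, whereas Notch3 and Jag2 take both signs.

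Mfng, manic fringe, adds the same sugar to Notch receptors. It was at 5.68, 5.60 and 5.94 in controls and at 5.46, 5.46 and 5.64 with fibrinogen, close to the background percentile of 5.51. Fibrinogen replicates 1 and 2 were below every control, and fibrinogen replicate 3 lay among them. Mfng had a log2 change of -0.22 ± 0.10 (SE), with an adjusted p of 0.352 in limma, and it was -0.12 without control replicate 3. The third fringe gene, Rfng, was not analysed here.

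The paralogs were then compared within each array, as the difference of their log2 levels. Lfng minus Mfng was 0.94, 1.02 and 0.56 in control replicates 1, 2 and 3 and 1.73, 1.52 and 1.37 with fibrinogen, with no overlap. The group mean was 0.84 in controls and 1.54 with fibrinogen, a difference of 0.70 with an exact two-sided permutation p of 0.1, the smallest that 3 against 3 arrays can give, and an adjusted p of 0.3 over the 3 pairs compared. With Mfng below the background percentile in fibrinogen replicates 1 and 2, this difference is in part one from background. Jag1 minus Jag2 differed by 0.19 between the groups (exact permutation p = 0.5, adjusted p = 0.75) and Dll1 minus Dll3 by 0.01 (exact permutation p = 1, adjusted p = 1). The Dll1 and Dll3 changes were thus of like mean size, although Dll1 minus Dll3 ranged from 0.07 to 0.72 among the fibrinogen arrays.

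**Figure D3:**
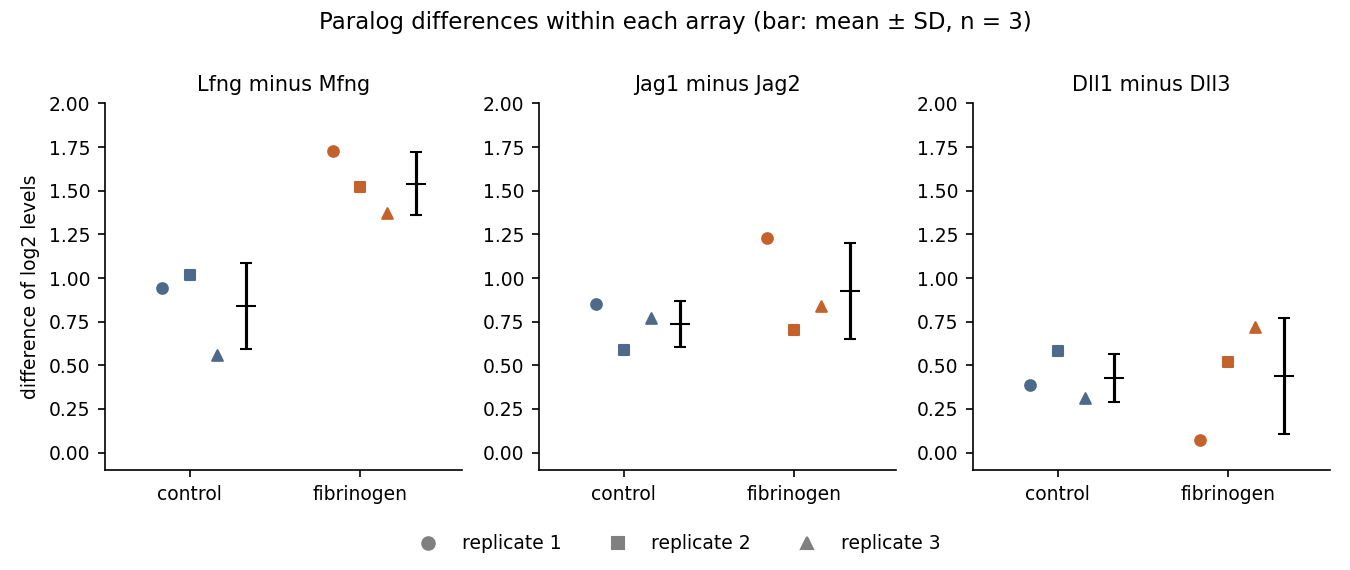
Difference of log2 levels between paralogs on each array, with control in blue, fibrinogen in orange and the bar giving the mean ± SD (n = 3). Lfng minus Mfng is at most 1.02 in controls and at least 1.37 with fibrinogen, while the other pairs overlap.

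Nrarp encodes a small ankyrin-repeat protein that Notch itself turns on and that limits the signal by acting on the cleaved receptor. It was at 6.85, 6.83 and 6.94 in controls and at 6.96, 6.97 and 7.20 with fibrinogen. The groups did not overlap, but the gap between the highest control and the lowest fibrinogen array was narrow, and fibrinogen replicate 3 stood above the other arrays. Nrarp had a log2 change of 0.17 ± 0.09 (SE), with a 95% interval from -0.03 to 0.37 and an adjusted p of 0.397 in limma. Without fibrinogen replicate 3 it was 0.092.

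The rest of the pathway was described with a list of 50 further genes, of which 39 were measured. Of these 2 rose and 0 fell (limma, adjusted p under 0.05), and before adjustment p was under 0.05 for 6 with a positive and 1 with a negative change. Over all genes these shares are 3.1% after and 15.6% before adjustment. The median log2 change of the 39 was 0.03, and it was -0.005 without control replicate 1 and 0.013 after median centring. Both genes that rose were listed as target repressors. Hes1, which represses genes that drive differentiation, was at 5.63, 5.82 and 5.66 in controls and at 6.69, 6.77 and 6.47 with fibrinogen. Its controls were close to the background percentile of 5.51. Hey1, a related repressor, was at 7.14, 7.21 and 7.20 in controls and at 7.82, 7.64 and 7.75 with fibrinogen. Neither gene's groups overlapped, and the log2 changes were 0.94 ± 0.10 and 0.55 ± 0.07 (SE; adjusted p = 0.00207 and 0.00597, limma). The other listed genes of the Hes and Hey families, Hes5, Hes6, Hey2 and Heyl, did not pass, with log2 changes of 0, 0, 0.30 and -0.0033. Whether any of these genes, Hes1 and Hey1 included, is a Notch target in these cells was not tested. Hey2, with a mean of 5.37 in controls and 5.67 with fibrinogen, was also near the background percentile. Its groups did not overlap, and it had an unadjusted p of 0.00859 and an adjusted p of 0.131 in limma.

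Of the 7 other ligands measured none passed, and the largest difference was that of Mfap2, a microfibril protein that can bind Jag1. It was at 8.50, 8.54 and 8.67 in controls and at 9.40, 8.61 and 9.23 with fibrinogen, where fibrinogen replicate 2 lay among the controls. The log2 change was 0.51 ± 0.18 (SE; adjusted p = 0.202, limma), and without fibrinogen replicate 2 it was 0.745 with an adjusted p of 0.00842. Before adjustment p was under 0.05 for 2 of the 7 with a positive change, Mfap2 and Dlk1, and for 1 with a negative change, Cntn1. Dlk1 and Cntn1 are named here after their values were seen. Dlk1 was at 6.56 to 6.75 in controls and 6.88 to 6.96 with fibrinogen (log2 change 0.24 ± 0.08, SE). Cntn1, an adhesion protein described as a Notch ligand in the oligodendrocyte lineage, was at 11.82 to 11.86 in controls and 11.58 to 11.66 with fibrinogen (log2 change -0.21 ± 0.07, SE).

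The enzymes and adaptors between ligand and nucleus showed small differences, and none passed. Among 2 glycosylation enzymes the larger change was 0.12 for Poglut1, which adds glucose to the receptor, and among 7 processing genes it was 0.15 for Aph1a, a subunit of the gamma-secretase that cleaves Notch. Among 8 genes of ubiquitination and endocytosis it was 0.16 for Numb, an adaptor that antagonises Notch, and among 8 nuclear genes 0.19 for Maml3, a coactivator of the Notch complex. With 1 array left out these changes ranged from 0.057 to 0.18 for Poglut1, 0.048 to 0.28 for Aph1a, 0.073 to 0.21 for Numb and 0.12 to 0.25 for Maml3. The receptor Notch4 had a log2 change of 0.08. Rbpj, the DNA-binding partner of Notch, named here after its values were seen, was at 9.21, 9.36 and 9.43 in controls and at 9.47, 9.62 and 9.41 with fibrinogen, and these groups overlapped.

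**Figure D4:**
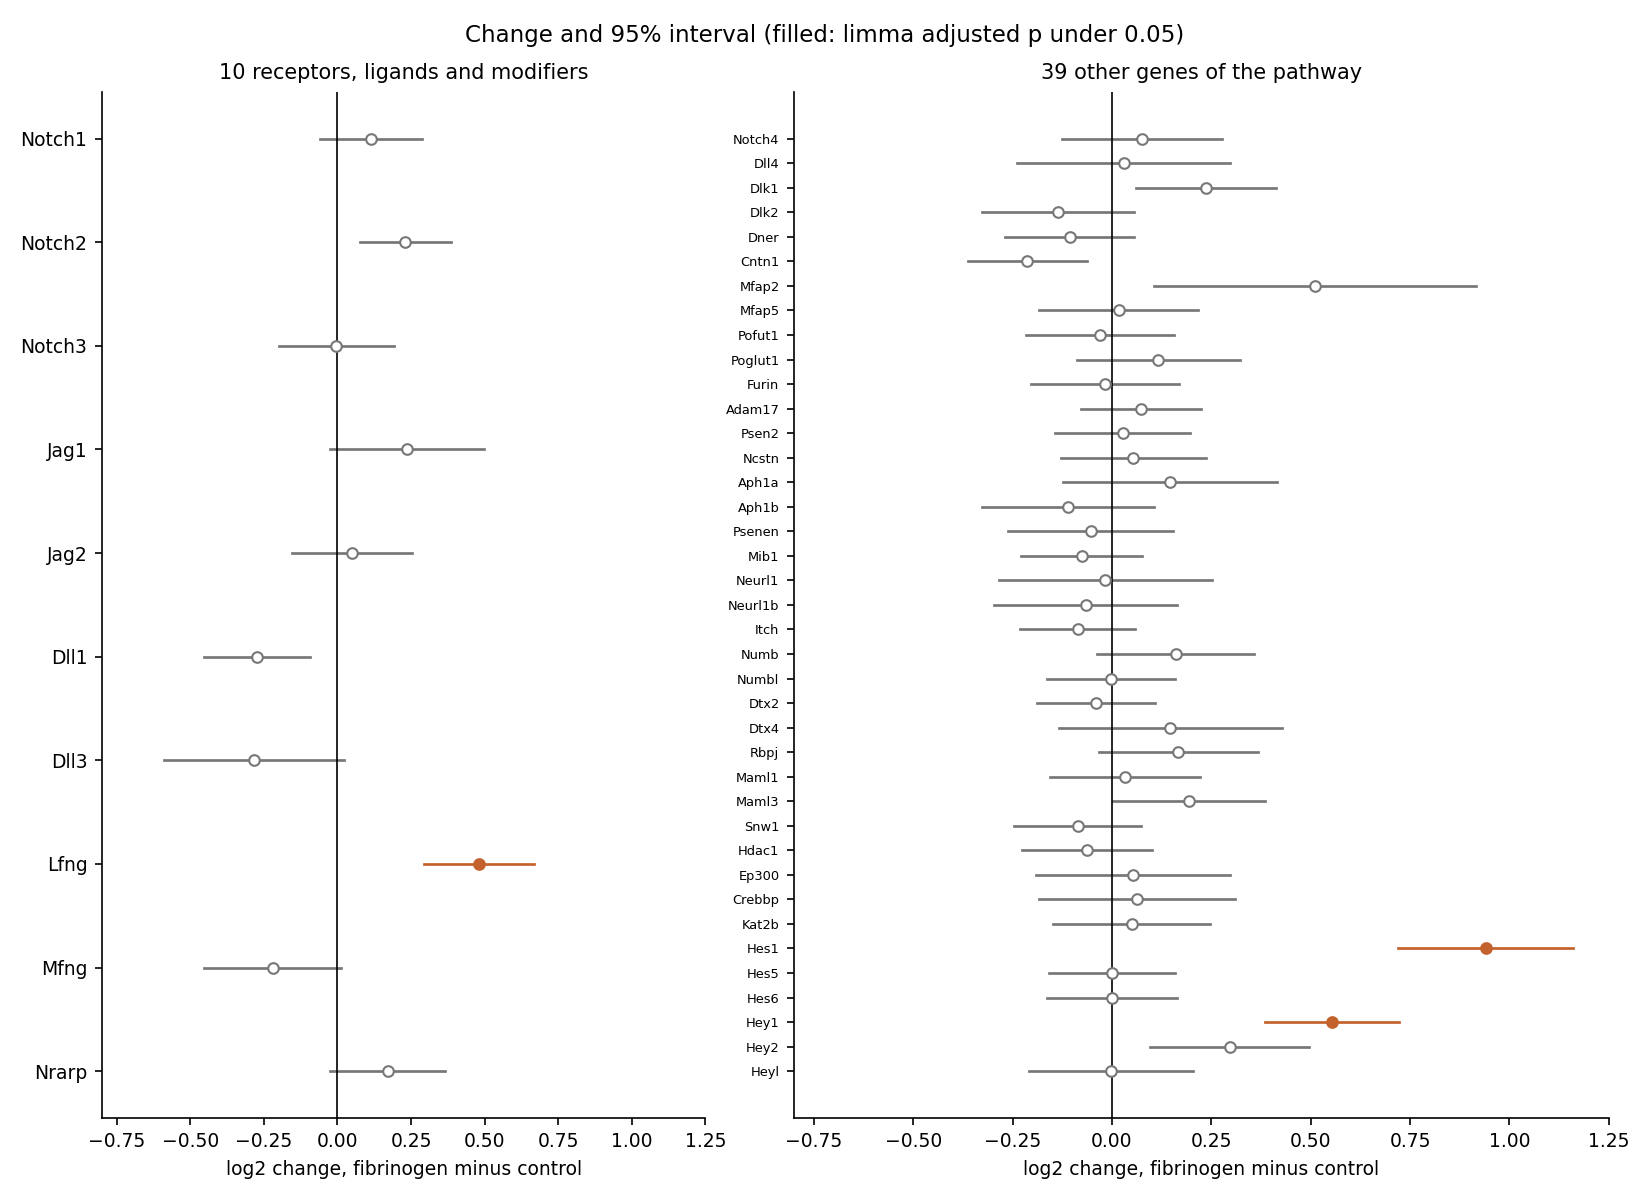
Log2 change (fibrinogen minus control) with its 95% interval for the 10 Notch genes (left) and 39 other genes of the pathway (right), filled orange where the limma adjusted p is under 0.05. Lfng on the left, and Hes1 and Hey1 on the right, are the filled points.

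The promoters of Lfng and Hes1 are shown because these genes rose, and that of Dll1 because it had the lowest unadjusted p among the Notch genes with a negative change. Each runs 5′ to 3′ on the gene's strand from 250 bases before the start of transcription to 50 bases into the transcript (RefSeq, build GRCr8). Capitals mark the core of the Rbpj recognition sequence, TGGGAA on either strand. The windows are chr12:19152869-19153168 for Lfng, chr11:84212996-84213295 for Hes1 and chr1:64993225-64993524 for Dll1, all on the minus strand.
Lfng: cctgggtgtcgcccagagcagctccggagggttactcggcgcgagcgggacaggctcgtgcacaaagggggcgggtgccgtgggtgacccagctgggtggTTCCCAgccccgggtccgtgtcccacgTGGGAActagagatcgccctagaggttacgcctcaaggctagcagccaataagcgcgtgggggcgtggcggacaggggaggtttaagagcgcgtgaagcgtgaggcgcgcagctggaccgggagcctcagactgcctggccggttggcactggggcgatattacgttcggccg
Hes1: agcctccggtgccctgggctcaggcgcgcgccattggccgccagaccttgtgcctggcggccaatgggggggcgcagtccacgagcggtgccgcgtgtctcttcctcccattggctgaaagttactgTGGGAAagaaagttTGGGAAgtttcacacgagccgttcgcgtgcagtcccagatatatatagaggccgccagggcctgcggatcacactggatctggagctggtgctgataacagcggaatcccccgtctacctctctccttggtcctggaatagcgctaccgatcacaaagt
Dll1: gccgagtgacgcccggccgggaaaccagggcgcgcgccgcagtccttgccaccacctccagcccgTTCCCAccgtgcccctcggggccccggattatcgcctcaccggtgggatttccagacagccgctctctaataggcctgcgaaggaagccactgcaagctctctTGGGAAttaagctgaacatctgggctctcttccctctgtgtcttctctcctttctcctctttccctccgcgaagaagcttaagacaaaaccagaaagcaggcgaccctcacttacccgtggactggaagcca
Promoters of 9 of the 10 Notch genes were found in the table, the other being Mfng. The Dll3 window, chr1:92697267-92697566 on the minus strand, lies inside the gene's span of 92689577 to 92698125. It therefore does not cover the outermost start of Dll3. The span of Lfng is 19144474 to 19152951, so the start from which its window is counted also lies inside the gene. That window does cover the outermost start of Lfng, but its positions are not counted from there. The core was present in 3 of the 9, with 2 matches each in Lfng and Dll1 and 1 in Notch3, and in 23.3% of 11506 promoters of tested genes. Of longer forms only CGTGGGAA was searched. It was present in Lfng, where it spans bases -125 to -118 before the start, and in 0.843% of the promoters of tested genes. Among the Hes and Hey genes it was also present in Hey2 at -62 to -55, which did not pass. In Lfng this form overlaps an E-box, CACGTG, at bases -127 to -122, which reads the same on both strands. That E-box is found in 8.04% of the promoters of tested genes. Nrarp has that E-box and no TGGGAA in its window. In Hes1 the cores lie at -123 to -118 and at -109 to -104, both on the gene's strand. With the bases before it, the core at -123 to -118 reads TGTGGGAA, which differs from CGTGGGAA in its first letter only. Hes5 also holds TGTGGGAA. That form was not searched, so its share among promoters is not known here. Hes5 and Hey2, which did not pass, also hold 2 cores each, and Hes6 and Heyl hold none. Hey1 was not found in the table. Among these genes the core was thus present in Lfng and Hes1, which rose, and also in Dll1, Notch3, Hes5 and Hey2, which did not pass. A match of letters is a description of the sequence and not a measured binding site.

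The genes whose pattern over the 6 arrays was most like that of Lfng were Id4, an inhibitor of differentiation factors, Mdk, the growth factor midkine, and Tpst2, an enzyme that adds sulfate to tyrosines, with Pearson correlations of 0.998, 0.995 and 0.992. These values describe 6 arrays in 2 groups, so they mostly reflect the group difference, and 122 genes had a correlation over 0.95. The log2 changes of Id4, Mdk and Tpst2 were 0.38, 0.67 and 0.15, of which the first and second passed (adjusted p = 0.0409 and 0.0156, limma) and that of Tpst2 did not (0.294). The call for Id4 was lost without any array but fibrinogen replicate 2, with an adjusted p up to 0.157, and that for Mdk without control replicate 1 or 3 (0.0557 and 0.0713).

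Markers of several cell types were read on the same arrays. Of 7 OPC markers 4 fell and 0 rose (Pdgfra, Cspg4, Gpr17 and Neu4), and their summed linear level was 16925 to 17496 in controls and 13793 to 15062 with fibrinogen. The number that fell was 2, 1 and 1 without control replicate 1, 2 and 3, and 2, 2 and 3 without fibrinogen replicate 1, 2 and 3. Of 6 astrocyte markers 2 rose and 0 fell (Gfap and Slc1a2), with a summed linear level of 1601 to 1674 in controls and 2362 to 2606 with fibrinogen, and both calls held with any 1 array left out. These OPC and astrocyte sums separated the groups as Lfng, Hes1 and Hey1 did, and their part in those results was not tested. Of 8 microglia, 5 endothelial and 6 pericyte and fibroblast markers none passed (limma, with p under 0.05 before adjustment for 0, 0 and 1 of them), and their summed levels overlapped between the groups. Of these, 4, 1 and 2 lay above the background percentile, and Itgam at 4.02 and Tek at 3.84 in controls were near the receptor genes' median of 4.03. Of 8 neuron markers none passed (0 before adjustment), and 6 lay above the background percentile. Their summed linear level was 2822 to 2877 in controls and 2825 to 3128 with fibrinogen. Fibrinogen replicate 2 was the highest array for Syt1 (8.58), Snap25 (7.95), Map2 (10.16) and Rbfox3 (6.93). It was the lowest for Tubb3 (9.78), Stmn2 (8.16) and Gad1 (4.77). Of 7 oligodendrocyte markers 5 had a positive and 2 a negative change, with p under 0.05 before adjustment for 1 in each direction. The tight junction gene Cldn11 had a log2 change of 0.38 that did not pass (adjusted p = 0.169, limma). Without fibrinogen replicate 2, 1 of the 7 passed as higher, a count that does not name the gene. The marker that fell was the myelin enzyme gene Cnp, by 0.48, a call that ended without control replicate 2 or 3 (adjusted p = 0.0785 and 0.0736, limma).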

How the data were processed

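RNA from 6 samples was amplified and biotin-labelled with NuGEN kits and hybridised to Affymetrix arrays, per the labels' protocols. Values are log2 levels deposited by the authors, presumably from RMA, which the submitters' processing notes name together with limma, without versions or roles. RMA corrects background and sets arrays to a common distribution, which can compress differences of dim genes. The log2 scale was inferred from the values. Scanner files were not used here.

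Of 26312 probe sets 1206 were blank on every array. Of the others, 14700 had 1 gene symbol in the platform annotation, and the highest-mean probe set of each gene gave 13949 genes. Groups and replicate numbers came from the titles. The labels do not say whether replicates were separate cultures, so p-values measure the spread between these samples only, which may be technical. Fibrinogen was compared with control with R 4.3.3 and limma 3.58.1 (functions lmFit then eBayes, without covariates, two-sided), with Benjamini-Hochberg adjustment over all 13949 genes and a threshold of 0.05. SE and intervals are those of this fit. Paralogs were compared by exact permutation. The procedure was also run on simulated data with independent normal noise of the variance this fit gave, which cannot test the assumptions of the fit. Members, lists and tests were chosen with earlier results of these data known.

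Named genes were the members, the pathway genes that passed, the largest change in each role, and the 3 genes most correlated with each member that passed. Exceptions, chosen after values were seen, are Cntn1, Dlk1, Rbpj, the remaining Hes and Hey genes, the marker genes named, and the promoters of Hes1 and Dll1. Alternatives were median centring, quantile normalization, 2 filters on dim genes, the replicate number as a block, trended robust variance, array weights, 2 treatments of probe sets, and leaving out each array.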

Additional observations from a re-analysis of the deposited data

How the results depend on the processing

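Of 150 recomputed changes of the 10 Notch genes, over 9 settings with all arrays and 6 with 1 array left out, 140 kept their direction and their side of the threshold. The other values were those of Lfng without control 1, 2 or 3 or fibrinogen 1, given with its result, Dll1 under array weights, and Notch3 and Jag2, whose changes near zero took the other sign or, for Jag2 without control 3, were 0. Notch3 had a log2 change of 0.027 under array weights and between -0.055 and 0.07 with 1 array left out, and Jag2 between -0.02 and 0.11. Notch4 was between -0.0033 and 0.13. Array weights gave 2 Notch genes (Lfng higher, Dll1 lower) and 659 of all genes. With 1 array left out, the number of Notch genes called ranged from 0 to 1 and that of all genes from 151 to 436. In those fits Dll1 minus Dll3 ranged from -0.13 to 0.19 and Lfng minus Mfng from 0.56 to 0.79. Hes1 and Hey1 passed under every setting tried. Of the 39 other pathway genes, 3 passed with trended robust variance (2 higher and 1 lower). With array weights, and without fibrinogen replicate 2, 3 passed in each fit, all higher. Under array weights Mfap2 had a log2 change of 0.65 and an adjusted p of 0.0210 (limma), so it passed there.

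Replicate numbers are shared between the groups, but same-numbered arrays deviated together only weakly (r = 0.0278, 0.0217 and 0.0109), so they were taken to share a number only, although each array correlated best with its own number. With the replicate block, 1 Notch gene, 2 other pathway genes and 315 of all genes passed, and Lfng had an adjusted p of 0.0310 (limma). Signal limits Mfng, Notch3 and Jag2, which lay near the background percentile, as did Hey2 and, in controls, Hes1.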
